A study of Mus musculus with 14 samples.

Results

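The genes described are 10 secreted proteins of the extracellular matrix: Fn1, Spp1, Vtn, Thbs1, Thbs2, Thbs4, Tnc, Postn, Sparc and Cthrc1. They were taken by gene symbol from the 32289 genes of the deposited table, and the transcripts of Fn1 were taken from the deposited transcript table. RNA was sequenced in bulk from the ascending aorta of C57BL/6 mice 6 weeks into an aneurysm model. The groups were PBS (3 libraries), BAPN alone (4), BAPN with Cilengitide (3) and BAPN with SB273005 (4). BAPN, β-aminopropionitrile, inhibits lysyl oxidase, the enzyme that joins collagen and elastin chains. Cilengitide is a cyclic peptide built around the sequence Arg-Gly-Asp, and SB273005 is named in the labels as another inhibitor of integrin αV. Both inhibitor groups also received BAPN, and no group received an inhibitor without it. The labels give no dose, age or sex, and they do not say that each library came from its own animal. A p-value here therefore reflects the spread over these libraries alone, which may be partly technical.

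Integrins are cell surface receptors, and those that hold the αV chain, together with α5β1, bind matrix proteins through the Arg-Gly-Asp (RGD) motif. Fibronectin, osteopontin and vitronectin are the classical RGD ligands. Matricellular proteins such as thrombospondins, tenascin-C, periostin and SPARC adjust how cells hold and remodel the matrix rather than forming its framework, and many of them are known to be scarce in the resting artery and abundant in injured or remodelling walls.

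Levels are in FPKM, a read count corrected for transcript length and library size, and each difference is a log2 ratio of scaled counts with its standard error (SE), tested with edgeR's quasi-likelihood test. A gene passed where its p, adjusted by Benjamini-Hochberg over the 13294 genes tested, was below 0.05. All 10 genes entered the test, which kept genes that reached 1 FPKM in 3 libraries. Vtn reached that level in 4 libraries, Thbs4 in 11 and the others in 14.

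Total counts were 49027885 to 72584877 per library. Counts of H2-Ea were 0 in the 6 libraries of PBS and SB273005 replicates 1 to 3, and 83 to 130 in the other 8. This parts the libraries into 2 sets that the labels do not name. Whether the sets differ in mouse strain, handling or sequencing was not tested. BAPN vs. PBS and Cilengitide vs. PBS lie wholly across that line, so group and library set cannot be told apart there. SB273005 vs. BAPN and SB273005 vs. Cilengitide also lie across it, but for SB273005 replicate 4. SB273005 vs. PBS can be taken within the first set. SB273005 replicate 2 stood apart: its summed FPKM of the 9 smooth muscle markers was 1188, against 4600 to 10733 in the other 13 libraries. Of those 9 markers 0 passed in BAPN or Cilengitide vs. PBS and 4 fell in SB273005 vs. PBS. Markers of smooth muscle, fibroblasts and endothelium were present in every library.

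The members divide by whether their coding sequence holds an RGD motif, and the stretches below show the coding sequence around it. Whether an integrin can reach or bind each motif in the folded protein was not tested. In the most abundant coding transcript of each gene, Fn1 and Thbs4 held 2 RGD motifs and Spp1, Vtn, Thbs1 and Thbs2 held 1 each. Tnc, Postn, Sparc and Cthrc1 held 0. The 57 bases are coding strand, 5′ to 3′, from GENCODE vM21 transcripts on mm10, and the capitals mark the RGD codons.
Fn1, first motif: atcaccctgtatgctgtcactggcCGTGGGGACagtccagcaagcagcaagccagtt
Fn1, second motif: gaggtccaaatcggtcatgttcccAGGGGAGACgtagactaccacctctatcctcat
Spp1: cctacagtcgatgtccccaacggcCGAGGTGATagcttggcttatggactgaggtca
Vtn: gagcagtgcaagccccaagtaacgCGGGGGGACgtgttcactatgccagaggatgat
Thbs1: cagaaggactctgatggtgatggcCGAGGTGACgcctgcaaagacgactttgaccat
Thbs2: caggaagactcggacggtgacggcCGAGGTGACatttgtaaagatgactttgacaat
Thbs4, second motif: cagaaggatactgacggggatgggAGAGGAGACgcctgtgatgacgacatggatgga
The first Fn1 motif is codon 1523 of 2386, counted from the start codon, in exon 29 of 45 at chr1:71606746-71606754 on the minus strand, and is the classical cell-binding site of fibronectin. The second, codon 2090, lies in exon 39 at chr1:71597443-71597451, in the variable region that splicing shortens. The Spp1 motif is codon 144 of 294, in exon 6 of 7 at chr5:104439481-104439489. That of Vtn is codon 64 of 478, in exon 3 of 8 at chr11:78499706-78499714. The motifs of Thbs1 (codon 927 of 1171, chr2:118122882-118122890) and Thbs2 (codon 928 of 1172, chr17:14671484-14671492, minus strand) stand in exon 18 of 22 of each gene, and are set in the calcium-binding repeats that the family shares. The Thbs4 motif shown is codon 564 of 963, in exon 13 of 22 at chr13:92762788-92762796 on the minus strand.

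Fibronectin, osteopontin, thrombospondin-1 and -2 and tenascin-C were higher than in PBS in both groups given BAPN with an inhibitor, and Cthrc1 was also higher with SB273005. With Cilengitide and BAPN, 5 of the 10 genes rose and 0 fell, where 5.58% of all genes tested passed in either direction; the median log2 difference of the 10 was 1.89, against -0.02 for all genes. With SB273005 and BAPN, 6 rose and Vtn fell, where 13.2% of all genes passed; the median was 1.56, against 0.02. With BAPN alone 0 of the 10 passed, where 0.233% of all genes passed, and the median was 0.79, against 0.00 for all genes. DESeq2 called 4 of the 10 there (Spp1, Thbs1, Tnc and Cthrc1) and 480 of all genes. In edgeR 7 of the 10 had an unadjusted p under 0.05, and the share of all genes below that level was not counted. These comparisons share the same 3 PBS libraries. The 10 genes were chosen with earlier results of these data known, so their counts and medians beside those of all genes are descriptions only. The FPKM ranges did not overlap, with the group given BAPN higher, for 6 of the 10 genes in BAPN vs. PBS, 8 in Cilengitide vs. PBS and 6 in SB273005 vs. PBS. Among all genes tested, ranges that did not overlap in either direction made up 14.6%, 31.9% and 23.2%.

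**Figure D1:**
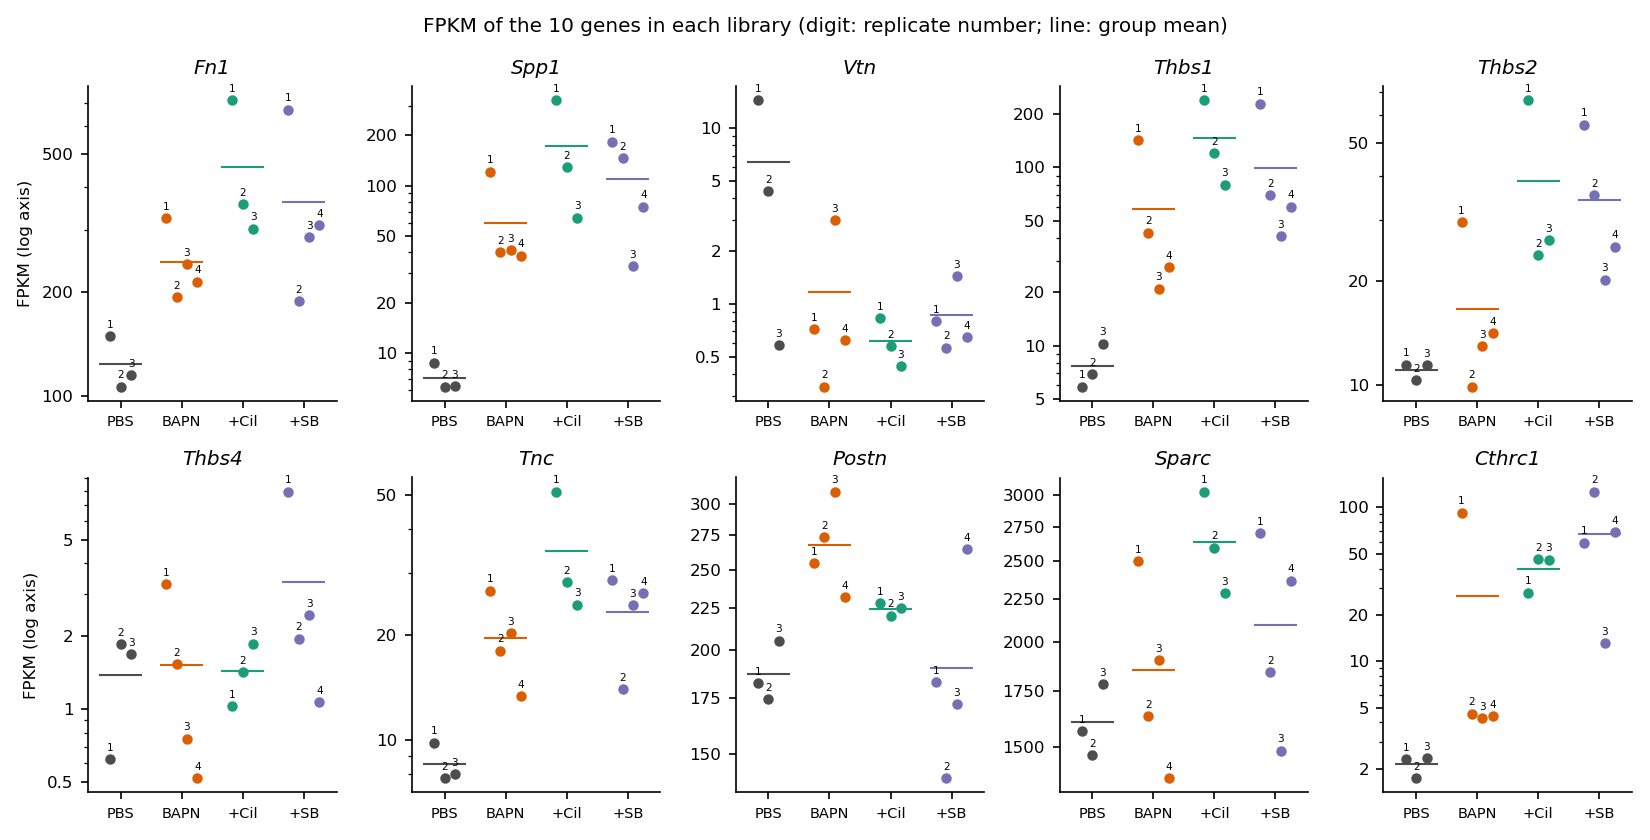
FPKM of each gene (vertical log axis, scaled separately per gene) in the 14 libraries, by group; digits are replicate numbers, lines are group means, +Cil is BAPN with Cilengitide and +SB is BAPN with SB273005. Replicate 1 is the highest library for 8 of 10 genes in BAPN and in Cilengitide, and Spp1, Tnc, Thbs1, Fn1 and Cthrc1 lie above PBS in every library given BAPN.

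Replicate 1 held the highest level within its group for 8 of the 10 genes in BAPN, for 8 in Cilengitide, for 7 in SB273005 and for 5 in PBS. Results that a single library decides are given below without it too.

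Fn1 encodes fibronectin, the matrix glycoprotein that cells assemble into fibrils and to which α5β1 and αV integrins bind; the gene spans chr1:71585520-71653175 on the minus strand. Its FPKM was 149, 106 and 115 in the PBS libraries and 326, 193, 240 and 214 in BAPN. With Cilengitide it was 712, 357 and 304, and with SB273005 668, 188, 287 and 311. Every library given BAPN was above every PBS library, and the 2 highest were replicate 1 of each inhibitor. The log2 difference from PBS was 0.99 ± 0.40 (SE) in BAPN (edgeR adjusted p = 0.330), 1.94 ± 0.43 in Cilengitide (adjusted p = 0.0232) and 1.62 ± 0.41 in SB273005 (adjusted p = 0.0236). Only the calls in the 2 inhibitor groups passed. The Cilengitide call ended without any 1 of PBS replicates 1, 2 and 3 (adjusted p = 0.0553, 0.0928 and 0.0776) and without Cilengitide replicate 1 (0.101) or 2 (0.0549). The SB273005 call ended without PBS replicates 1, 2 or 3 (adjusted p = 0.0539, 0.0947 and 0.0796) and within the first library set, where the log2 difference was 1.69 (adjusted p = 0.112). It also ended without a filter (adjusted p = 0.0532), with rescaled FPKM (0.0876) and with only the 2 groups compared (0.0849), and held in 16 of 23 alternatives. The summed FPKM of 8 cartilage markers was 91.1 in Cilengitide replicate 1 and 67.9 in SB273005 replicate 1, against 11.5 to 26.1 in the other 12 libraries; these 2 libraries were also the highest of their groups for Spp1, Thbs1, Thbs2, Tnc and Sparc. The part of cartilage in the results of these 6 genes was not tested. Of the 8, Col2a1 reached 47.2 FPKM, Matn1 was at or near 0 in every library (highest 0.08), and 0 of the 4 tested passed in any comparison with PBS. In bulk tissue, more cells of a type and more RNA per cell cannot be told apart.

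Fibronectin is spliced at 3 places: the extra domains EDA and EDB are single exons that are kept or skipped, and the variable region is cut short by use of inner splice sites. Fibronectin that holds EDA or EDB is known from embryos and healing wounds and is scarce in plasma fibronectin. The EDA exon is exon 33 of the longest deposited Fn1 transcript, 270 bases at chr1:71603660-71603929 on the minus strand. It is shown because its presence sets the share described next, and the capitals mark the codons of the loop known to be read by integrin α9β1.
EDA exon: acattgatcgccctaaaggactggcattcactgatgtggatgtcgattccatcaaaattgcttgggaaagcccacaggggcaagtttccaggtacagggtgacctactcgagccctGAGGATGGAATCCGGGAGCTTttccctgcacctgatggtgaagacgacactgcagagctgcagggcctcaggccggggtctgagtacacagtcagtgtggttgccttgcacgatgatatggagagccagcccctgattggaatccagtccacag
The EDB exon, exon 25 of the same transcript, is 273 bases at chr1:71613763-71614035.

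Of 15 deposited Fn1 transcripts, 7 were full-length coding ones, of which 4 hold EDA and 1 holds EDB. Summed over libraries, 6 transcripts held at least 5% of the Fn1 transcript FPKM. The leading one, ENSMUST00000188894, which holds EDA and the longest variable exon (467 bases), had 29.8% of it. ENSMUST00000187938, with EDA and a variable exon of 392 bases, had 20.1%, and ENSMUST00000190780, without EDA and with 392 bases, had 17.7%. ENSMUST00000055226, with both EDA and EDB, had 7.43%, and ENSMUST00000186129, without either, had 6.38%. ENSMUST00000185408, a transcript that keeps an intron and is not coding, had 9.25%. Transcript FPKM are estimates that divide shared reads between models, and their sum was 1.49 to 2.22 times the gene's own FPKM, so shares and gene levels are on different scales.

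**Figure D2:**
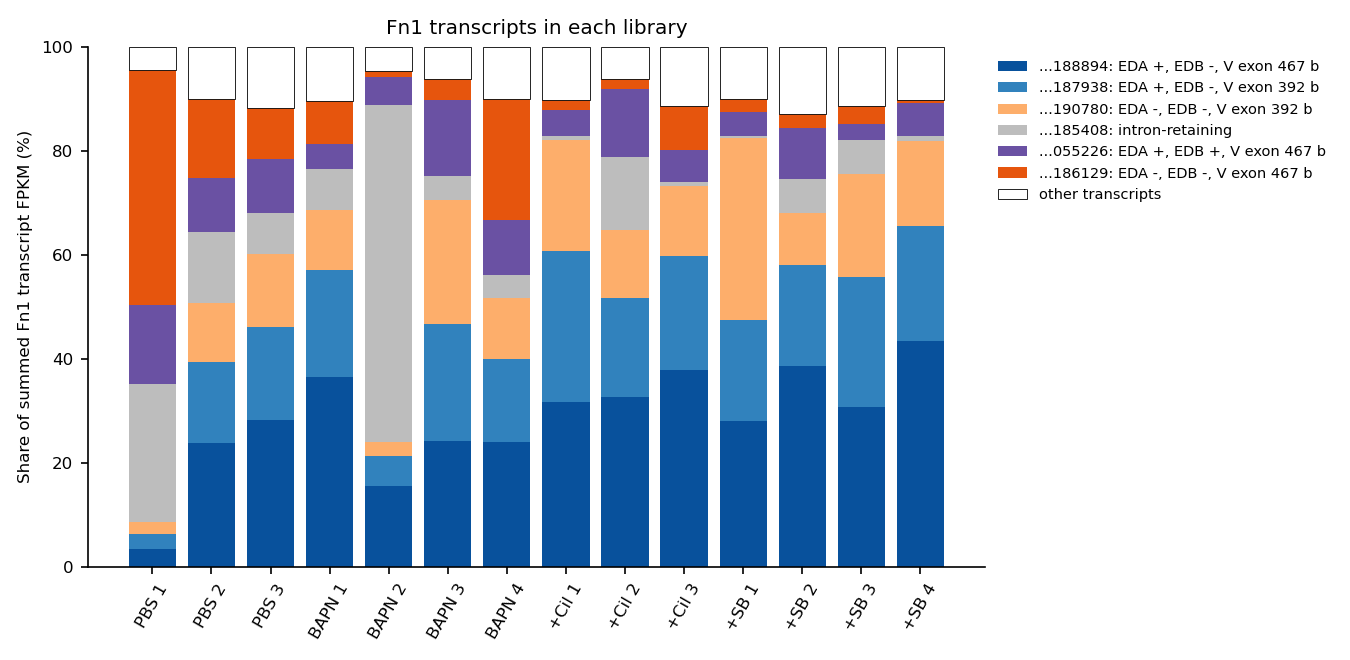
Share of the summed Fn1 transcript FPKM (percent, vertical axis) held by the 6 transcripts with at least 5% over all libraries and by the others, in each of the 14 libraries; names give the last digits of the transcript, whether EDA and EDB are kept, and the length of the variable (V) exon. The intron-retaining transcript takes 65.0% in BAPN replicate 2, and a transcript without EDA takes 45.2% in PBS replicate 1.

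Among the 7 full-length coding transcripts, those with EDA held 32.4%, 64.3% and 68.1% of the FPKM in PBS and 73.2%, 85.4%, 68.4% and 58.6% in BAPN. With Cilengitide the share was 71.7%, 79.4% and 72.6%, and with SB273005 57.5%, 81.3%, 69.7% and 77.9%. The lowest share was that of PBS replicate 1, and only the Cilengitide group lay wholly above PBS. The means were 54.9% ± 19.6 (SD, n = 3) in PBS, 71.4% ± 11.1 (n = 4) in BAPN, 74.6% ± 4.19 (n = 3) in Cilengitide and 71.6% ± 10.6 (n = 4) in SB273005. No difference passed an exact two-sided permutation test over libraries: the difference from PBS was 16.5, 19.6 and 16.7 percentage points, each with an adjusted p = 0.571 over the 6 comparisons. Without PBS replicate 1 these differences were 5.19, 8.35 and 5.37 points. As a share of all Fn1 transcripts rather than of the full-length coding ones, EDA transcripts were 6.83, 23.1 and 20.6 points above PBS in BAPN, Cilengitide and SB273005 (exact permutation test, adjusted p = 0.549, 0.229 and 0.229). The smallest p that these tests allow is 0.1 for 3 against 3 libraries, 0.0571 for 3 against 4 and 0.0286 for 4 against 4. Adjusted over the 6 comparisons, none of these can fall below 0.05. No comparison of Fn1 shares, here or below, could therefore pass, and these tests decide nothing.

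The share of the leading transcript in all Fn1 transcripts was 3.42%, 23.9% and 28.2% in PBS and 36.5%, 15.4%, 24.1% and 24% in BAPN. It was 31.6%, 32.6% and 37.8% with Cilengitide and 28.1%, 38.7%, 30.7% and 43.5% with SB273005. In the lowest PBS library and the lowest BAPN library another transcript took the largest share: in PBS replicate 1 ENSMUST00000186129 held 45.2%, and in BAPN replicate 2 ENSMUST00000185408 held 65.0%. Cilengitide was above PBS by 15.5 points (exact permutation test, adjusted p = 0.257) and SB273005 by 16.8 points (adjusted p = 0.257), and without PBS replicate 1 by 7.99 and 9.25 points. BAPN differed from PBS by 6.54 points (exact permutation test, adjusted p = 0.617). The transcript with EDB held 14.9% ± 5.28 (SD, n = 3) of the full-length coding FPKM in PBS, 12% ± 5.02 (n = 4) in BAPN, 8.96% ± 5.67 (n = 3) in Cilengitide and 6.39% ± 3.28 (n = 4) in SB273005, with groups that overlapped.

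Spp1 encodes osteopontin, an RGD ligand of αV integrins secreted by macrophages, osteoblasts and injured smooth muscle; it spans chr5:104435118-104441050. PBS libraries were at 8.76, 6.32 and 6.34 FPKM. BAPN libraries were at 121, 40.1, 41.3 and 38.3, Cilengitide at 323, 129 and 64.4, and SB273005 at 183, 145, 33.0 and 74.7. The lowest library given BAPN was well above the highest PBS library, and replicate 1 was the highest of each group. The log2 difference from PBS was 4.63 ± 0.76 in Cilengitide (24.8-fold; edgeR adjusted p = 0.00723) and 4.01 ± 0.72 in SB273005 (16.1-fold; adjusted p = 0.00580). It was 3.08 ± 0.69 in BAPN (8.43-fold), which missed the threshold (edgeR adjusted p = 0.0663). Both calls held in every alternative tried, and without Cilengitide replicate 1 the Cilengitide difference was 3.82. Within the first library set SB273005 was 4.17 above PBS (edgeR adjusted p = 0.0292). The BAPN difference passed with DESeq2, with a replicate block and with only BAPN and PBS in the fit.

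Macrophage markers were higher in the groups in which Spp1, Fn1, Thbs1, Thbs2, Tnc and Cthrc1 were higher. Of 12 such genes, 1 passed in BAPN vs. PBS, 11 in Cilengitide vs. PBS and 12 in SB273005 vs. PBS, all higher. Their summed FPKM was 161 to 306 in PBS, 329 to 798 in BAPN, 519 to 1038 in Cilengitide and 537 to 1141 in SB273005. The marker Cd14 was at 3.27 FPKM (mean) in PBS and 17.3 in Cilengitide, and Adgre1, which encodes the F4/80 antigen, at 1.73 and 11. The part of macrophage content in the differences of these 6 genes was not tested.

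**Figure D3:**
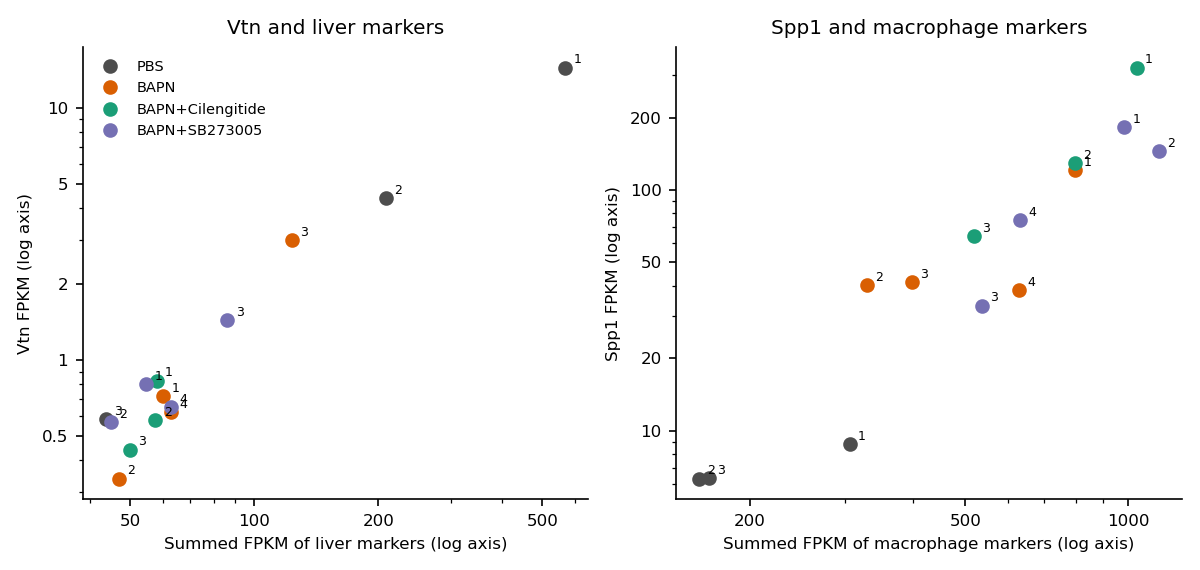
Left, Vtn FPKM against the summed FPKM of 10 liver markers; right, Spp1 FPKM against that of 12 macrophage markers; all axes are logarithmic, each point is 1 library and digits are replicate numbers. PBS replicates 1 and 2 are the highest for both Vtn and liver markers, and the PBS libraries are the lowest for both Spp1 and macrophage markers.

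The start of Spp1 is shown because, of the 6 genes with an RGD motif, Spp1 differed most from PBS in both inhibitor groups. Its upstream sequence in RefSeq (GRCm38.p6), 250 bases at chr5:104434861-104435110, is shown with a TATAAA and a RUNX-type AACCACA match in capitals.
Spp1 upstream: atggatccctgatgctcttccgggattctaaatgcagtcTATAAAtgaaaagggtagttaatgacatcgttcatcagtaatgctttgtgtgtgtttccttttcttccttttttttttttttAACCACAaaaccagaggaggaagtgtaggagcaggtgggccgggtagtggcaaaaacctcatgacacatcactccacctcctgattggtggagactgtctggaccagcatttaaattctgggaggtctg
A motif known to be read by RUNX factors, AACCACA, was searched on both strands of the 250 bases before each start. So were TGANTCA, the AP-1 motif, and GGAATG, a motif of TEAD factors. The TATA box was searched as TATAAA, and none of these matches overlap in Spp1. Of the 10 genes, 7 had an entry, and Fn1, Thbs1 and Cthrc1 were not among them. These 7 genes had 10 upstream sequences, and a gene was counted where any of its sequences matched. The percentages over all count single sequences, so the rates are on different scales. AACCACA was found in 1 of the 7 genes, Spp1, and in 4.4% of all 32851 upstream sequences. TATAAA was found in 5 of 7 genes (12.4% of all), GGAATG in 2, Vtn and Thbs4 (12.6%), and TGANTCA in 0 (6.75%). These matches describe letters in a short window and are not binding sites.

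Vtn encodes vitronectin, an RGD ligand made mainly by the liver and carried in plasma; it spans chr11:78499091-78502324. It was at 14.4, 4.39 and 0.58 FPKM in PBS and at 0.72, 0.34, 2.99 and 0.62 in BAPN. Cilengitide libraries were at 0.83, 0.58 and 0.44, and SB273005 libraries at 0.80, 0.57, 1.44 and 0.65. The high values were 2 of the 3 PBS libraries and BAPN replicate 3, and the other PBS library lay among those given BAPN. The log2 difference from PBS was -2.80 ± 0.85 in SB273005, which passed (edgeR adjusted p = 0.0475) although the groups overlap. It was -2.39 ± 0.84 in BAPN (edgeR adjusted p = 0.248) and -3.29 ± 0.97 in Cilengitide (adjusted p = 0.0667). The call held in 5 of 23 alternatives, and without PBS replicate 1 the difference was -1.53 (edgeR adjusted p = 0.255).

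Liver markers moved with Vtn across libraries. Their summed FPKM was 568, 209 and 43.6 in PBS replicates 1, 2 and 3, 124 in BAPN replicate 3, and 44.9 to 86.2 in the other 10 libraries. Of the 10, 0 passed in BAPN vs. PBS, 4 fell in Cilengitide vs. PBS and 8 fell in SB273005 vs. PBS; Alb, serum albumin, was at 66.0 FPKM (mean) in PBS and 8.31 in SB273005. The 3 genes whose log2(FPKM + 1) was most like that of Vtn over the 14 libraries were Ambp, Apoh and Fgb (Pearson r = 0.99, 0.98 and 0.98). The part of liver transcripts in the Vtn difference was not tested.

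The thrombospondins are matricellular proteins. Thrombospondin-1 and -2 bind CD36, CD47 and integrins, and thrombospondin-1 is known to activate latent TGF-β. Thbs1 (chr2:118111876-118127133) was at 5.89, 6.93 and 10.3 FPKM in PBS and at 143, 43.1, 20.8 and 27.7 in BAPN. With Cilengitide it was at 238, 120 and 80.2, and with SB273005 at 228, 70.1, 41.2 and 60.3. No library given BAPN overlapped PBS, and all 3 replicates numbered 1 in those groups were the highest. The log2 difference from PBS was 4.28 ± 0.84 in Cilengitide (19.4-fold; edgeR adjusted p = 0.0143), 3.75 ± 0.80 in SB273005 (13.4-fold; adjusted p = 0.0113) and 2.91 ± 0.77 in BAPN (7.53-fold; adjusted p = 0.112). Both calls ended without PBS replicate 2 (edgeR adjusted p = 0.0677 and 0.0582), and that of Cilengitide also without its replicate 1 (0.0511). Without SB273005 replicate 1 its Thbs1 difference was 2.96, and within the first library set it was 3.94 (edgeR adjusted p = 0.0342).

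Thbs2 encodes thrombospondin-2, which is known to be made by fibroblasts and smooth muscle and to limit vessel growth (chr17:14665500-14694235, minus strand). It was nearly constant in PBS at 11.5, 10.3 and 11.4 FPKM. BAPN libraries were at 29.5, 9.91, 12.9 and 14.2, Cilengitide at 66.2, 23.7 and 26.2, and SB273005 at 56.3, 35.3, 20.1 and 25.1. BAPN overlapped PBS while both inhibitor groups lay above it. Thbs2 differed from PBS on the log2 scale by 0.58 ± 0.44 in BAPN (edgeR adjusted p = 0.696), 1.84 ± 0.48 in Cilengitide (adjusted p = 0.0434) and 1.69 ± 0.46 in SB273005 (adjusted p = 0.0313). The Thbs2 call in Cilengitide held in 12 of 22 alternatives. Without Cilengitide replicate 1 the difference was 1.22 (edgeR adjusted p = 0.196). The call also ended without each PBS library, BAPN replicates 3 or 4 or Cilengitide replicate 2. So it did without a filter (edgeR adjusted p = 0.0809) and with limma on log2(FPKM + 1) or log2(FPKM + 0.1) (limma adjusted p = 0.0616 and 0.0558). The SB273005 call held in 17 of 23, ending without any 1 PBS library (edgeR adjusted p = 0.0820, 0.104 and 0.0848) or without SB273005 replicate 1 (0.0689). That call also ended without a filter (edgeR adjusted p = 0.0667) and with rescaled FPKM (limma adjusted p = 0.0717). Within the first library set the difference was 1.83 (edgeR adjusted p = 0.0427).

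Thbs4, a pentameric thrombospondin known from tendon and heart (chr13:92751590-92794818, minus strand), was low throughout. It was at 0.62, 1.85 and 1.69 FPKM in PBS, 3.29, 1.54, 0.76 and 0.52 in BAPN, 1.03, 1.43 and 1.87 in Cilengitide and 7.90, 1.96, 2.44 and 1.07 in SB273005. All groups overlapped. Against PBS, Thbs4 differed on the log2 scale by 0.11 ± 0.70 in BAPN and 0.07 ± 0.75 in Cilengitide, with signs that turned under other settings, and 1.29 ± 0.72 in SB273005 (edgeR adjusted p = 0.982, 0.976 and 0.259).

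Tnc encodes tenascin-C, a large matricellular protein known to be induced at sites of wall stress and injury (chr4:63959785-64020725, minus strand). It was at 9.84, 7.78 and 7.98 FPKM in PBS, 26.7, 18.0, 20.2 and 13.3 in BAPN, 51.2, 28.2 and 24.4 in Cilengitide, and 28.6, 14, 24.2 and 26.2 in SB273005. The groups given BAPN lay wholly above PBS and overlapped each other. The log2 difference from PBS was 2.06 ± 0.31 in Cilengitide (4.17-fold; edgeR adjusted p = 0.00567), 1.5 ± 0.30 in SB273005 (2.83-fold; adjusted p = 0.00827) and 1.2 ± 0.29 in BAPN (2.30-fold; adjusted p = 0.0862). Both Tnc calls held in every alternative tried. The Tnc difference within the first library set was 1.45 (edgeR adjusted p = 0.0329). The BAPN difference passed with DESeq2, with a replicate block and without SB273005 replicate 2.

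Postn encodes periostin, which binds αV integrins without an RGD motif and aids collagen assembly (chr3:54361109-54391037). It was at 182, 174 and 205 FPKM in PBS, 254, 274, 310 and 232 in BAPN, 228, 220 and 225 in Cilengitide and 183, 140, 172 and 265 in SB273005. BAPN lay wholly above both PBS and Cilengitide, and SB273005 overlapped PBS. Against PBS, Postn differed on the log2 scale by 0.52 ± 0.20 in BAPN (edgeR adjusted p = 0.303), 0.30 ± 0.21 in Cilengitide (adjusted p = 0.483) and 0.07 ± 0.20 in SB273005 (adjusted p = 0.844), and the last turned sign under 6 other settings. Postn had the narrowest spread of the 10 genes within PBS after Thbs2, with a coefficient of variation of 8.60%.

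Sparc encodes the collagen-binding matricellular protein SPARC (chr11:55394500-55423183, minus strand) and was the most abundant of the 10 in FPKM, a scale that is per length. It was at 1566, 1465 and 1782 in PBS, 2498, 1631, 1903 and 1376 in BAPN, 3026, 2595 and 2288 in Cilengitide and 2698, 1841, 1484 and 2370 in SB273005. Only Cilengitide lay wholly above PBS. Sparc differed from PBS on the log2 scale by 0.21 ± 0.26 in BAPN, 0.76 ± 0.28 in Cilengitide and 0.45 ± 0.26 in SB273005 (edgeR adjusted p = 0.849, 0.144 and 0.289). DESeq2, and edgeR with only Cilengitide and PBS in the fit, called the Cilengitide difference.

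Cthrc1 encodes a secreted protein with a collagen triple helix repeat that was found in injured arteries and marks activated fibroblasts (chr15:39076932-39087121). PBS libraries were at 2.32, 1.74 and 2.35 FPKM. In BAPN, replicate 1 was at 92.5 and the other 3 at 4.55, 4.27 and 4.38. Cilengitide libraries were at 27.9, 46.0 and 45.6, and SB273005 libraries at 58.9, 126, 13.2 and 69.1. All libraries given BAPN were above PBS, and those with an inhibitor were above BAPN replicates 2 to 4. Cthrc1 differed from PBS on the log2 scale by 5.05 ± 1.25 in SB273005 (33.1-fold; edgeR adjusted p = 0.0219), 4.27 ± 1.23 in Cilengitide (19.2-fold; adjusted p = 0.0617) and 3.61 ± 1.17 in BAPN (12.2-fold; adjusted p = 0.197). Without BAPN replicate 1 the BAPN difference was 1.06 (edgeR adjusted p = 0.663) and the Cilengitide difference passed (adjusted p = 0.00528). The Cthrc1 call in SB273005 ended without any 1 PBS library (adjusted p = 0.0635, 0.0870 and 0.0711), and within the first library set the difference was 5.06 (edgeR adjusted p = 0.0313). Fibroblast markers, 10 in all, had 0 higher in BAPN vs. PBS, 2 in Cilengitide vs. PBS and 4 in SB273005 vs. PBS, with summed FPKM of 626 to 933 in PBS and 986 to 1657 over the groups given BAPN; their part in the Cthrc1 result was not tested.

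**Figure D4:**
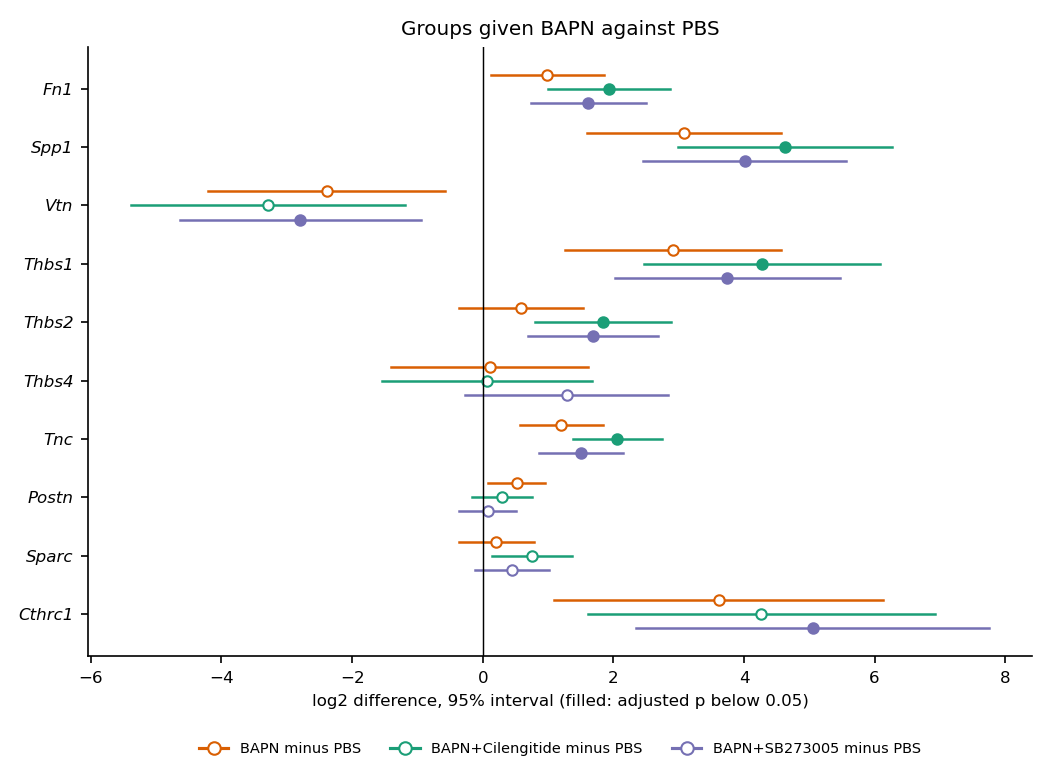
Log2 difference from PBS of the 10 genes (horizontal axis) in the 3 groups given BAPN, with 95% intervals from edgeR; filled points have an adjusted p below 0.05. The filled points are 5 for Cilengitide, 7 for SB273005 and 0 for BAPN alone, and Vtn is the gene on the negative side in all 3.

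Neither inhibitor was followed by a change in the 10 genes that passed against BAPN alone in the edgeR fit of all libraries. In Cilengitide vs. BAPN, 0 of the 10 genes passed, where 0% of all genes tested did (edgeR). DESeq2 called 0 of the 10 and 21 of all genes. The median log2 difference was 0.76, against -0.01 for all genes. In edgeR 4 had an unadjusted p under 0.05 (Fn1, Spp1, Thbs2 and Tnc), and the share of all genes below that level was not counted. Tnc was 0.86 higher (95% interval 0.25 to 1.46; edgeR adjusted p = 0.795) and Thbs2 1.26 higher (0.32 to 2.19; adjusted p = 0.795). Postn was the gene whose ranges did not overlap, 10.5% of all genes being so in either direction, with a log2 difference of -0.22 (interval -0.65 to 0.21). All of these libraries lie in the second set.

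In SB273005 vs. BAPN, 0 of the 10 passed, where 0.0301% of all genes did (edgeR). In edgeR 2 had an unadjusted p under 0.05, Thbs2 and Postn, and the share of all genes below that level was not counted. DESeq2 called 0 of the 10 and 395 of all genes. The median log2 difference was 0.73, against 0.02 for all genes. Thbs2 was 1.11 higher (95% interval 0.22 to 1.99; edgeR adjusted p = 0.231) and Postn 0.45 lower on the log2 scale (-0.45, interval -0.84 to -0.05; adjusted p = 0.266). No gene of the 10 had ranges that did not overlap, where 7.87% of all genes had. Without BAPN replicate 1, Cthrc1 passed (edgeR adjusted p = 0.0261), which is 1 gene of the 10, where 47 of all genes passed. Within the second set SB273005 has 1 library, and there Postn was at 0.03 and Thbs2 at 0.65 against BAPN.

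The inhibitors did not differ detectably from each other in these genes, and their doses are not given, so responses at matched doses could not be compared. SB273005 replicates 1 to 3 lie in the first library set and all Cilengitide libraries in the second. Apart from SB273005 replicate 4, inhibitor and library set therefore cannot be told apart. In SB273005 vs. Cilengitide 0 of the 10 passed, where 0% of all genes did (edgeR). DESeq2 called 0 of the 10 and 39 of all genes. In edgeR 0 of the 10 had an unadjusted p under 0.05, and the share of all genes below that level was not counted. Ranges that did not overlap numbered 0 of 10, against 6.53% of all genes. The intervals were wide: that of Spp1 ran from -1.93 to 0.68 around -0.62, that of Cthrc1 from -1.40 to 2.97 around 0.79, and that of Tnc from -1.17 to 0.05 around -0.56. The narrowest, that of Postn, ran from -0.65 to 0.20.

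**Figure D5:**
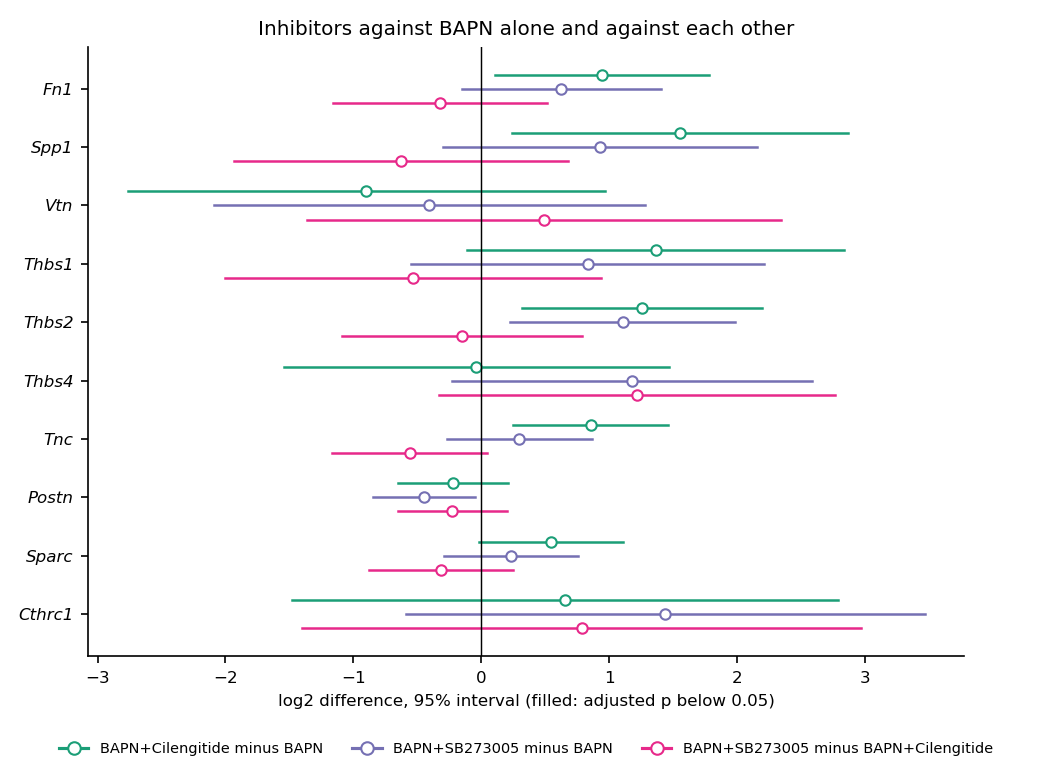
Log2 differences of the 10 genes (horizontal axis) between inhibitor groups and BAPN alone and between the inhibitors, with 95% intervals from edgeR; open points have an adjusted p of 0.05 or more. All 30 points are open, and the intervals of Vtn, Thbs1, Thbs4, Sparc and Cthrc1 span 0 in each comparison.

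Of 11 integrin chains that bind RGD ligands or pair with αV, 8 were tested. In edgeR 0 passed in BAPN or Cilengitide vs. PBS, and 1 of 8 fell in SB273005 vs. PBS, a share near the 13.2% of all genes that passed there: Itgb3, the β3 chain, was at 9.63 FPKM against 20.3 (mean), a log2 difference of -1.03 ± 0.21 (edgeR adjusted p = 0.00867). The list's median log2 difference was -0.16 in Cilengitide and -0.31 in SB273005. Its summed FPKM was 432 in SB273005 replicate 2, the library with the low smooth muscle markers, and 932 to 1156 in the other 3 of that group; the part of that library in the Itgb3 result was not tested. Other receptors of matricellular proteins, 11 tested, had 5 higher in Cilengitide vs. PBS and 6 in SB273005 vs. PBS (medians 0.57 and 0.49). Stab1, a scavenger receptor that takes up SPARC, was 1.39 ± 0.28 and 1.57 ± 0.27 higher (edgeR adjusted p = 0.0158 and 0.00465). Sdc1, a syndecan, was 1.27 ± 0.32 and 1.16 ± 0.30 higher, and Cd44, an osteopontin and hyaluronan receptor, 0.99 ± 0.26 higher in Cilengitide (edgeR adjusted p = 0.0369, 0.0261 and 0.0463).

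Other genes with RGD motifs or αV ligand function numbered 17, of which 13 were tested. In Cilengitide vs. PBS 2 rose, and in SB273005 vs. PBS 3 rose and 3 fell (medians 0.18 and -0.11). Comp, the cartilage oligomeric thrombospondin, was at 10.8 FPKM (mean) in PBS, 146 in Cilengitide and 112 in SB273005, log2 differences of 3.79 ± 0.61 and 3.42 ± 0.59 (edgeR adjusted p = 0.00685 and 0.00475). Fbn1, fibrillin-1, rose by 1.13 ± 0.30 and 1.00 ± 0.29 (edgeR adjusted p = 0.0480 and 0.0387). Those that fell were the fibrinogen chain genes Fga, Fgb and Fgg, which the liver makes. Fga was 3.55 ± 1.03 lower on the log2 scale in SB273005 than in PBS (-3.55, edgeR adjusted p = 0.0400). The summed liver markers were high in PBS replicates 1 and 2, at 568 and 209 FPKM. PBS replicate 3, at 43.6, was below the SB273005 libraries, at 44.9 to 86.2. The part of liver transcripts in the fibrinogen result was not tested. Among other thrombospondin, tenascin and SPARC relatives, 8 were tested; 2 rose with Cilengitide, Comp and Smoc2, and 1 with SB273005, Comp. Of 5 CCN genes tested, matricellular relatives that answer to TGF-β and YAP, 1 rose with Cilengitide and 3 with SB273005. Ccn4 was at 1.53 FPKM in PBS and at 8.83 and 11.6 in the inhibitor groups, and Ccn2 at 678 and 1733 in PBS and SB273005. The summed FPKM of the CCN genes was 1150 in SB273005 replicate 2, within the PBS range of 1128 to 1789. In SB273005 replicates 1, 3 and 4 it was 2736, 3127 and 3332.

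Binding partners and processing enzymes of fibronectin and thrombospondins moved in 1 direction where they passed. Of 18 tested, 7 rose in Cilengitide vs. PBS and 9 in SB273005 vs. PBS, with 0 lower in either (medians 1.13 and 1.11), and 0 passed in BAPN vs. PBS (median 0.60). Timp1, an inhibitor of matrix metalloproteinases, was at 20.5 FPKM (mean) in PBS, 96.3 in Cilengitide and 80.3 in SB273005. Lox, the lysyl oxidase that BAPN blocks, was at 52.6, 193 and 195. Mmp2, a gelatinase, was at 71.1, 249 and 255, log2 differences of 1.84 ± 0.40 and 1.91 ± 0.39 (edgeR adjusted p = 0.0225 and 0.00957).

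The genes most like each called member, by Pearson r of log2(FPKM + 1) over the 14 libraries, are given as a description, since all these genes share the libraries and the difference between PBS and the rest. For Fn1 they were Pdgfc, Nucb2 and Gcnt4 (r = 0.97, 0.97 and 0.96), and for Spp1 the macrophage genes Fcrls and Ms4a6d, with Mcub (r = 0.98, 0.97 and 0.98). Thbs1 stood nearest to Arsj, Fmod and Fcgr1 (r = 0.98, 0.97 and 0.96), and Thbs2 to P4ha3, Plxnb2 and Mxra8 (r = 0.98, 0.97 and 0.97). Tnc stood nearest to Ttc9, Dram1 and Crlf2 (r = 0.97, 0.96 and 0.95). Cthrc1 stood nearest to Col3a1, Ccdc80 and Srpx2 (r = 0.97, 0.97 and 0.96), of which Col3a1 encodes a fibrillar collagen.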

How the data were processed

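Libraries of 14 ascending aorta samples were sequenced. The submitters' processing notes name HISAT2 2.2.1, StringTie 2.1.6 and the mm10 build, with no role for either tool. For annotation release and strand setting: not given in the sources used here. The authors deposited an FPKM and an estimated count for each gene and each transcript. The estimated counts are whole numbers in the deposited tables and were used as such. Overlapping and antisense genes and close paralogs are therefore uncertain.

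The 13294 of 32289 genes that reached 1 FPKM in 3 libraries were tested on the estimated counts with edgeR 4.0.16 in R 4.3.3 (TMM, quasi-likelihood, 1 fit over 14 libraries, 1 mean per group, Benjamini-Hochberg over all genes tested, threshold 0.05). SEs were worked back from the F statistic, and 95% intervals use a t distribution. In data simulated for SB273005 vs. PBS, the fit recovered most of the largest planted changes. Recovery of the smaller planted changes was not held to any limit, and the other comparisons were not simulated. Fn1 shares were compared with exact permutation tests in SciPy 1.17.1.

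Coordinates are those of the deposited tables; all 56 deposited transcripts of the 10 genes had the same ends, exon number and length in GENCODE vM21, from which coding sequences were read. Upstream sequences are from RefSeq (GRCm38.p6).

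The 10 genes and the gene lists were chosen with earlier results of these data known. Named are the 10 genes, Fn1 transcripts with at least 5% of summed FPKM, of each list up to 4 called genes by smallest p, the 3 nearest genes of each called member, and markers that move with a member. H2-Ea, Fgg and ranges quoted for single libraries were chosen after their values were seen, as were the EDA share and its alternatives. Alternatives were DESeq2 1.42.0, its size factors in edgeR, no filter, limma 3.58.1 on log2(FPKM + 1), log2(FPKM + 0.1) or rescaled FPKM, a replicate block, only the 2 groups compared, 1 library set, and each library left out. Replicates, compared in 18 pairs, all differed by more than sampling noise (chi-square per degree of freedom 59.3 or more). In SB273005 vs. Cilengitide the 3 pairs of same-numbered libraries deviated together (r = 0.36, 0.19 and 0.29). So did Cilengitide replicate 3 and SB273005 replicate 4 (r = 0.33), and the labels name no pairs. The p-values and intervals printed for that comparison treat the libraries as unpaired, and the replicate block was an alternative only. No library or column was left out.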

Additional observations from a re-analysis of the deposited data

Results flagged for a closer look

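In 24 groups of 4 libraries (FPKM of the 10 genes and the Fn1 shares, in BAPN and in SB273005), 4 had 1 library that lay far from the other 3, by Dixon's gap test. Chance gives about 1 in 20 only for independent values with a normal spread. All 4 flagged values were high ones, and Spp1 and Cthrc1 share a library, so their number cannot be set against that rate. Cthrc1 was at 92.5 FPKM in BAPN replicate 1, with the nearest of the others at 4.55, and Spp1 was at 121 in the same library, with the nearest at 41.3. Vtn was at 2.99 FPKM in BAPN replicate 3, with the nearest at 0.72. Thbs1 was at 228 FPKM in SB273005 replicate 1, with the nearest at 70.1. Groups of 3 libraries were not examined this way.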

How the results depend on the processing

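The Spp1 and Tnc calls in both inhibitor groups vs. PBS held in all alternatives. Of the 10 genes, DESeq2 called 8 in Cilengitide vs. PBS, against 5, and 4 in BAPN vs. PBS, against 0. In BAPN vs. PBS only the 2 groups compared gave 1. In SB273005 vs. PBS no filter gave 4 and rescaled FPKM 4, against 7. With 1 library left out the counts ran from 0 to 1 in BAPN vs. PBS, 2 to 6 in Cilengitide vs. PBS, 2 to 7 in SB273005 vs. PBS and 0 to 1 in SB273005 vs. BAPN, and stayed at 0 in the other comparisons. The causes were not tested.

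Deviations from the group means correlated at r over 0.1 in 12 of 19 pairs of same-numbered libraries (median 0.14) and in 9 of 54 pairs with different numbers (median -0.04). Every same-numbered pair did so in SB273005 vs. Cilengitide, where a replicate block changed no call. Elsewhere at least 1 pair did not. In every comparison the main fit took the libraries to share only a number. A replicate block gave 2 called genes in BAPN vs. PBS (Spp1 and Tnc), 5 in Cilengitide vs. PBS, 6 in SB273005 vs. PBS and 0 elsewhere.

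Over all genes, edgeR called 31, 742 and 1754 in BAPN, Cilengitide and SB273005 vs. PBS and DESeq2 480, 1465 and 2607; without a filter the counts were 3, 421 and 1006, with rescaled FPKM 20, 549 and 729, and with 1 library left out 2 to 186, 109 to 1249 and 498 to 1988. A block gave 141 in BAPN vs. PBS, and fits of the 2 groups compared gave 105, 1071 and 534. DESeq2 called 21 in Cilengitide vs. BAPN, 395 in SB273005 vs. BAPN and 39 in SB273005 vs. Cilengitide. Rescaling shifts all log2 differences by 0.20 in Cilengitide vs. PBS, 0.13 in Cilengitide vs. BAPN, -0.11 in SB273005 vs. BAPN and -0.24 in SB273005 vs. Cilengitide.

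Log2 differences that turned sign were all uncalled. Postn in SB273005 vs. PBS was -0.0152 with limma on log2(FPKM + 1), -0.0155 on log2(FPKM + 0.1), -0.0545 with rescaled FPKM, -0.0013 with the replicate block, -0.11 within the first set and -0.13 to 0.17 with a library left out. Within the second set Postn was 0.0345 and Thbs4 -0.45 in SB273005 vs. BAPN, and Postn 0.25 and Thbs4 -0.42 in SB273005 vs. Cilengitide. Thbs4 was -0.0549 in BAPN vs. PBS with log2(FPKM + 0.1), and in Cilengitide vs. BAPN 0.0572 with log2(FPKM + 1), 0.20 with log2(FPKM + 0.1) and 0.23 with rescaled FPKM. With a library left out, Thbs4 ran from -0.57 to 0.40 in BAPN vs. PBS, -0.30 to 0.37 in Cilengitide vs. PBS and -0.33 to 0.64 in Cilengitide vs. BAPN, and Vtn from -1.20 to 0.17 in Cilengitide vs. BAPN and -0.74 to 0.67 in SB273005 vs. BAPN. In SB273005 vs. Cilengitide, Fn1 ran from -0.79 to 0.13, Spp1 from -1.02 to 0.18 and Thbs2 from -0.49 to 0.47.

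With a library left out, the leading Fn1 transcript's share differed by -0.99 to 11.4 points in BAPN vs. PBS and -1.48 to 3.64 in SB273005 vs. Cilengitide. The EDA share differed by -1.09 to 7.82 points in Cilengitide vs. BAPN, -4.07 to 4.87 in SB273005 vs. BAPN and -6.22 to 1.70 in SB273005 vs. Cilengitide. As a share of all Fn1 transcripts, the EDA difference was 16.3 points in Cilengitide vs. BAPN, against 3.16 among full-length coding ones, and 13.8 in SB273005 vs. BAPN, against 0.18. The leading transcript's difference in Cilengitide vs. BAPN was 5.79 points without BAPN replicate 2, against 8.98. The smallest p that the exact test of a share allows is 0.1 for 3 against 3 libraries and 0.0571 for 3 against 4. For 4 against 4 it is 0.0286. After adjustment over the 6 comparisons none of these can fall below 0.05, so no comparison of shares could pass.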
